A study of Mus musculus with 39 samples.

Results

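The immediate early genes Fos, Fosb, Jun, Junb, Atf3 and Egr1 were followed through 39 single cells of adult mouse liver. They were chosen by symbol, with any transcript rows of a symbol summed, and are 6 of the 10061 gene symbols measured. Each was measured through 1 RefSeq transcript. The cells were green cells sorted from livers of mice of the genotype Krt19CreERT/Rosa26CAG-EGFP and picked singly into lysis buffer for RNA sequencing. In such mice a drug-inducible Cre recombinase is driven by Krt19, a keratin gene of bile duct epithelium, and switches on a fluorescent reporter for good, so a green cell had Krt19-driven Cre itself or descends from a cell that had. The labels put all 39 cells in 1 group and name no treatment, time, age, animal, sort or plate. Without animals to tell apart, single cells do not replicate a condition, so the values below describe these cells, and no test between cells was made.

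Immediate early genes are transcribed within minutes of a signal, without new protein synthesis. Fos and Fosb proteins pair through leucine zippers with Jun or Junb to form AP-1, a family of dimeric transcription factors that bind DNA as pairs. Atf3 is a stress-induced member of the same leucine zipper superfamily, and Egr1 is a zinc finger factor induced by the same kinase cascades. In liver these genes are known for their rapid response to partial hepatectomy and injury, and they are also known to be induced when tissue is digested into single cells. Whether either applies to these cells was not tested.

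The windows around the transcription starts of 5 of the genes are shown. They were chosen because cAMP response elements (CRE) are known to take part in the induction of several of these genes. The 6 genes were also high in many of the same cells, and whether such elements have a part in that was not tested. Each window runs from 250 bases before to 50 after the RefSeq start in the GRCm38.p6 build, 5′ to 3′ on the gene's strand. Capitals mark the CRE half-site TGACG, its extended forms TGACNTCA, the AP-1 site TGANTCA and the core promoter element TATAAA, each searched on both strands, so that a half-site on the other strand reads CGTCA here. TGACG overlaps with TGACNTCA where the N is G. The windows are chr12:85473640-85473939 on the + strand for Fos, chr7:19309996-19310295 on the - strand for Fosb, chr4:95052173-95052472 on the - strand for Jun, chr8:84978699-84978998 on the - strand for Junb and chr1:191183284-191183583 on the - strand for Atf3. The window of Egr1 is not shown.
Fos: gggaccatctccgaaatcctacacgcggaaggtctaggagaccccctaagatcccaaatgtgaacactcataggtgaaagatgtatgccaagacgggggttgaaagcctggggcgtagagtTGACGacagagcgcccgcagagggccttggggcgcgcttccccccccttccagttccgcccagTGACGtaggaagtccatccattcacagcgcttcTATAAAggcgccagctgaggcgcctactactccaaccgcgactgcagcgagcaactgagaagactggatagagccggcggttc
Fosb: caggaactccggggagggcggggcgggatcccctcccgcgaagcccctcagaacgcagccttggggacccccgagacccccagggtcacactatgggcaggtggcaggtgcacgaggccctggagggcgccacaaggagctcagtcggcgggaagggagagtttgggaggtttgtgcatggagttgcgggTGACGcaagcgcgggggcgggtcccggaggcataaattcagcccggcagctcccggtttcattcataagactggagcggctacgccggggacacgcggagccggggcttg
Jun: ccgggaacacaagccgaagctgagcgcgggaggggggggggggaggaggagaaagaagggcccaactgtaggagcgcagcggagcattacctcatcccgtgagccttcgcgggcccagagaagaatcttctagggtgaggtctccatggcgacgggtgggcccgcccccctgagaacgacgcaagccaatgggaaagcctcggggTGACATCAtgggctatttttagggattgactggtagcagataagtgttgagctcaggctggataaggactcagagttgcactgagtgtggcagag
Junb: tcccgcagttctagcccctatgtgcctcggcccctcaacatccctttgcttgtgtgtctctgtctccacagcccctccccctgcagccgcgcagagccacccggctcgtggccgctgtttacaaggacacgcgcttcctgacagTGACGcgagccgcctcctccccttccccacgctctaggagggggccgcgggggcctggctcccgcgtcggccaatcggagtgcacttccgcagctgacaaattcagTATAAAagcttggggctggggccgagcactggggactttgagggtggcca
Atf3: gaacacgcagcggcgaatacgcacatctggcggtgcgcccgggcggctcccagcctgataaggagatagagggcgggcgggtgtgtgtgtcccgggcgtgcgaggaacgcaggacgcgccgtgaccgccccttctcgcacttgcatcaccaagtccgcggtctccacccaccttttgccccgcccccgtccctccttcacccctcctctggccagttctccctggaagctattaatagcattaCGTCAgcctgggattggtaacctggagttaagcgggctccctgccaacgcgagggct

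The half-site TGACG was found in 4 of the 5 windows, those of Fos, Fosb, Junb and Atf3, while 20.8% of all 32851 windows of this length held it. In Fos it lay 66 and 129 bases before the start, in Fosb 60, in Junb 106 and in Atf3, on the other strand, 7 bases before it. The Jun window held the extended form TGACATCA instead, 45 bases before the start, the sequence of the known Jun and ATF2 binding site of this gene. TGACNTCA was in 8.83% of all windows. TATAAA was in the windows of Fos, 33 bases before the start, and of Junb, where it began at the RefSeq start, 30 bases before the start of the matching GENCODE transcript. It was in 13.6% of all windows. The complete CRE TGACGTCA (1.79% of all windows), the AP-1 site TGANTCA (7.81%) and the CArG box, the core of the serum response element (1.63%), were in 0 of the 5. Only these windows were searched, and Egr1 had none. Elements further from the start would be missed, so these counts do not show that the genes lack them. An EGR site, GCGNGGGCG, was in the Fosb window and in 5.55% of all windows, and CCAAT was in 3 of the 5 and in 37.4% of all. The 5 windows held 58.7% (Fos) to 68.3% (Fosb) G and C, above the median of 52.7% over all windows. The shares over all windows were not matched for this, and its part in the motif counts was not tested. The motifs were chosen with the expression values known, and a match describes letters, not binding.

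All 6 genes were among the most widely found transcripts of these cells. CPM here means the deposited log2 values turned back to a linear scale and taken as scaled read counts. Cell sums ran from 351255 to 3128332 CPM, so 100 CPM is not the same share of each cell. At a level of 100 CPM, Junb was found in 33 of 39 cells, Jun in 32 and Fos in 30. Of all genes 0.557% reached that level in at least 30 cells. Fosb and Egr1 were found in 25 cells each, beside 1.12% of genes that reached it in at least 25, and Atf3 in 22, beside 1.68% in at least 22. In the 37 cells whose low values showed what a read is worth, 100 CPM came to between 367 and 4151 reads, with a median of 1202. Cells 38 and 39 showed no such step. Of the 39 cells, 29 held 3 or more of the 6 genes at this level (74.4%, exact Clopper-Pearson 95% interval 57.9% to 87.0%) and 18 held all 6 (46.2%, interval 30.1% to 62.8%). In 3 cells none of the 6 reached it.

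**Figure D1:**
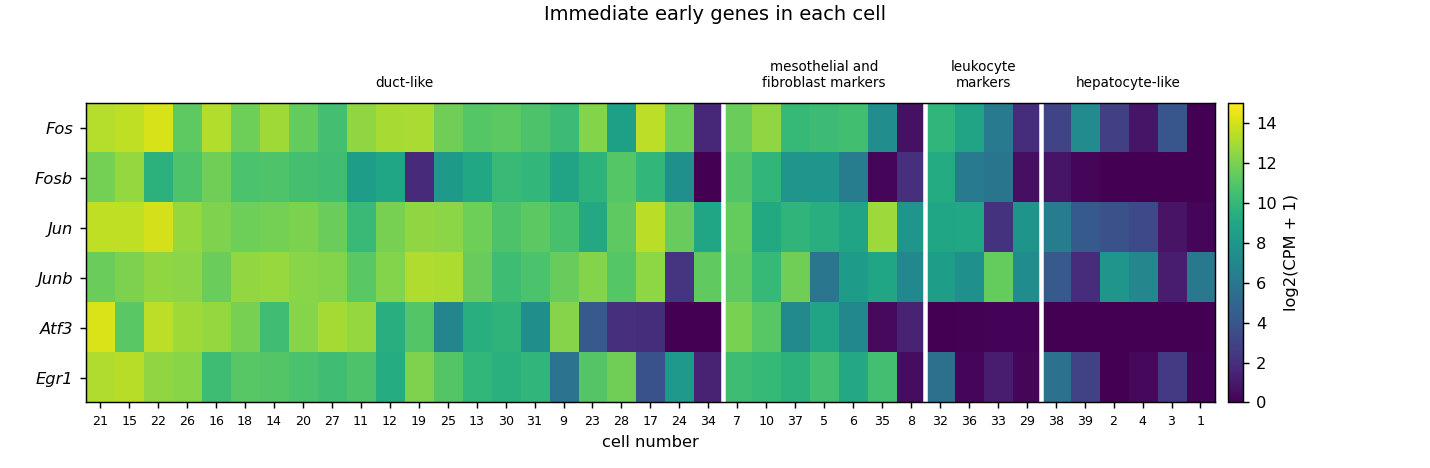
Level of each gene, log2(CPM + 1) by colour, in each of the 39 cells, with the cells grouped by marker genes and ordered within a group by their mean over the 6 genes. The 15 duct-like cells with all 6 genes at 100 CPM fill most of the left side, and in the 6 hepatocyte-like cells on the right the genes are mostly dark.

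The cells fell into 4 groups when clustered on cell type markers alone, among which none of the 6 genes is counted. Of these, 22 cells were duct-like, with a median of 8.5 of 19 measured duct markers at 100 CPM (range 4 to 11) and Spp1, Cdh1, Krt18, Krt8 and Onecut2 among the 10 leading genes. A group of 6 was hepatocyte-like, with 23 to 27 of 28 hepatocyte markers. The 7 cells of another group held both mesothelial markers (4 to 9 of 10) and fibroblast markers (2 to 5 of 11), so neither name could be given to them. The 4 remaining cells held 4 of 5 leukocyte markers each, 0 to 8 of 9 granule markers (median 6.5) and 1 to 8 of 9 macrophage markers, and were not named either. Because the markers formed these groups, the marker counts only describe them. Duct-like cells also held 0 to 11 of the 28 hepatocyte markers (median 2.5). Krt19 itself reached 100 CPM in 15 cells, 11 of them duct-like, and was listed at 0 in all 6 hepatocyte-like cells. The median cell had 2985 genes at 1 CPM (range 1866 to 5298).

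In duct-like cells Jun reached 100 CPM in 22 of 22, Fos and Junb in 21 and Fosb in 20, where 0.278% of all genes did so in at least 20. Egr1 reached it in 19 and Atf3 in 17, beside 0.606% in at least 17. All 6 reached 100 CPM together in 15 of the 22 duct-like cells (interval 45.1% to 86.1%), in 3 of the 7 cells with mesothelial and fibroblast markers (9.90% to 81.6%), in 0 of the 4 cells with leukocyte markers (up to 60.2%) and in 0 of the 6 hepatocyte-like cells (up to 45.9%). At least 3 did so in 21, 6, 2 and 0 cells of these groups. The intervals of the 3 small groups are wide, since each holds few cells. Summed over the 6 genes, the median share of a cell's CPM was 1.65% in duct-like cells (range 0.209% to 4.61%), 0.621% in the 7 cells, 0.180% in the 4 and 0.0219% in hepatocyte-like cells (range 0.00276% to 0.0499%).

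**Figure D2:**
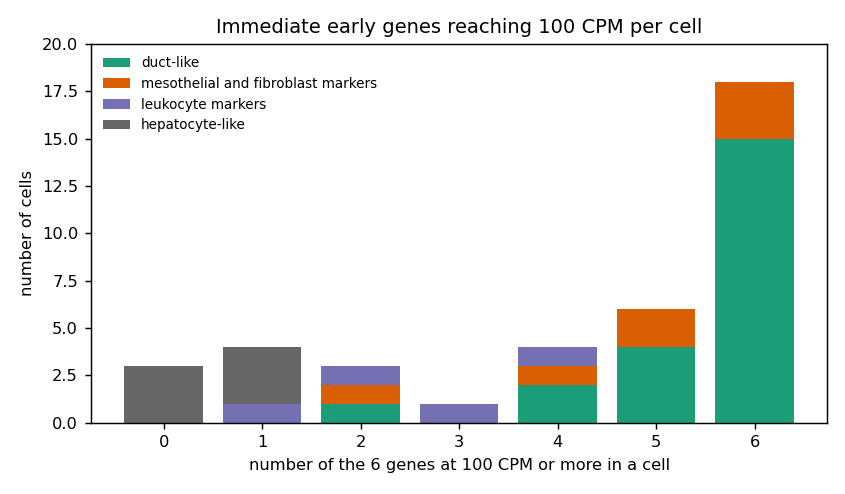
Number of cells (vertical) by how many of the 6 genes reached 100 CPM in the cell (horizontal), coloured by group of cells. The tallest bar, 18 cells with all 6 genes, holds 15 duct-like cells and 3 with mesothelial and fibroblast markers, while the 6 hepatocyte-like cells hold 0 or 1 of the genes.

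Fos, the partner that gives AP-1 its strongest activating dimers with Jun, had a median of 3405 CPM in duct-like cells. It was lowest in cell 34 (2.32 CPM) and highest in cell 22 (17571 CPM). It was at or above 1000 CPM in 20 of the 22. In the 7 cells with mesothelial and fibroblast markers its median was 1244 CPM (0.592 to 5747), and cell 8 held the low value. The 4 cells with leukocyte markers had 2.82, 925, 73.5 and 433 CPM in cells 29, 32, 33 and 36. In hepatocyte-like cells Fos had a median of 6.79 CPM, was listed at 0 in cell 1 and was highest, at 148 CPM, in cell 39. So Fos of hepatocyte-like cells lay under 21 of the 22 duct-like cells, with cell 34 as the exception.

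Fosb, the relative of Fos whose transcript is also known for a truncated splice form, had a median of 987 CPM in duct-like cells (0 to 6383 CPM). It was listed at 0 in cell 34 and at 2.40 CPM in cell 19, and the other 20 cells lay at 184 CPM or more. The splice forms were not separated, since a single Fosb transcript was measured. The 7 cells had a median of 223 CPM (0.149 to 1939), and the 4 cells with leukocyte markers had 0.562, 604, 55.2 and 75.8 CPM in the same order as above. In hepatocyte-like cells Fosb was listed at 0 in 4 of 6 and reached 0.806 CPM at most. Every one of the other 33 cells but 3 lay above that, the exceptions being cells 29, 34 and 35.

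Jun, the partner that can also bind DNA as a pair with itself, was the 1 gene of the 6 whose values in duct-like and hepatocyte-like cells did not overlap, where 0.0895% of all genes lay higher in every duct-like cell. Its median was 3480 CPM in duct-like cells, with 448 CPM in the lowest, cell 34, and 16992 CPM in the highest, cell 22. Hepatocyte-like cells had a median of 10.4 CPM, with 0.184 CPM in cell 1 at the low end and 78.4 CPM in cell 38 at the high end. The 7 cells lay between 224 CPM in cell 8 and 7256 CPM in cell 35, with a median of 715 CPM. The 4 cells with leukocyte markers had 218, 472, 3.64 and 503 CPM, so cell 33 was as low as the hepatocyte-like cells.

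Junb, a Jun relative that is a weaker activator and can restrain Jun, was the only one of the 6 at 1 CPM or more in all 39 cells. Its median in duct-like cells was 4482 CPM, and 21 of the 22 lay at 1306 CPM or more. Cell 24 alone had 3.95 CPM, although its Fos stood at 3302 and its Jun at 2923 CPM. In the 7 cells it ranged from 57.8 to 3380 CPM with a median of 464 CPM, and the 4 cells with leukocyte markers had 155, 331, 2759 and 187 CPM. In cells 33 and 34, where Fos, Fosb, Atf3 and Egr1 were all under 100 CPM, Junb stood at 2759 and 2612 CPM, but in cells 8 and 29, where the same 4 genes were under 100 CPM, it stood at 125 and 155 CPM. Hepatocyte-like cells had a median of 40.3 CPM (1.21 to 235), and 2 of them passed 100 CPM.

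Atf3, a factor that mostly represses as a pair with itself, had the widest spread. In duct-like cells its median was 1715 CPM, from cells 24 and 34, where it was listed at 0, to 18180 CPM in cell 21, the highest value of any of the 6 genes in any cell. It was under 100 CPM in 5 duct-like cells, numbers 17, 23, 24, 28 and 34, of which all but cell 34 held Fos and Jun at 100 CPM. In the 7 cells its median was 144 CPM (0.298 to 3966). In the cells with leukocyte markers it was 0.126 CPM or less in all 4, although cell 32 held Fos at 925 and Fosb at 604 CPM. In hepatocyte-like cells it was listed at 0 in 5 and at 0.0368 CPM in cell 38. Atf3 thus reached 100 CPM in 17 of 22 duct-like cells, 5 of the 7 and 0 of the other 10.

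Egr1, a zinc finger factor that activates growth and stress genes and its own corepressor Nab2, had a median of 1728 CPM in duct-like cells (1.80 to 10537 CPM). It was under 100 CPM in cells 9, 17 and 34. The 7 cells with mesothelial and fibroblast markers had a median of 1058 CPM, and 6 of them lay between 531 and 1475 CPM, while cell 8 had 0.395 CPM. In the cells with leukocyte markers Egr1 was 0.187, 44.5, 1.26 and 0.220 CPM, and in hepatocyte-like cells it had a median of 2.56 CPM and a highest value of 49.9 CPM in cell 38. Egr1 and Atf3 were the 2 genes that reached 100 CPM in none of the 4 and none of the 6.

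**Figure D3:**
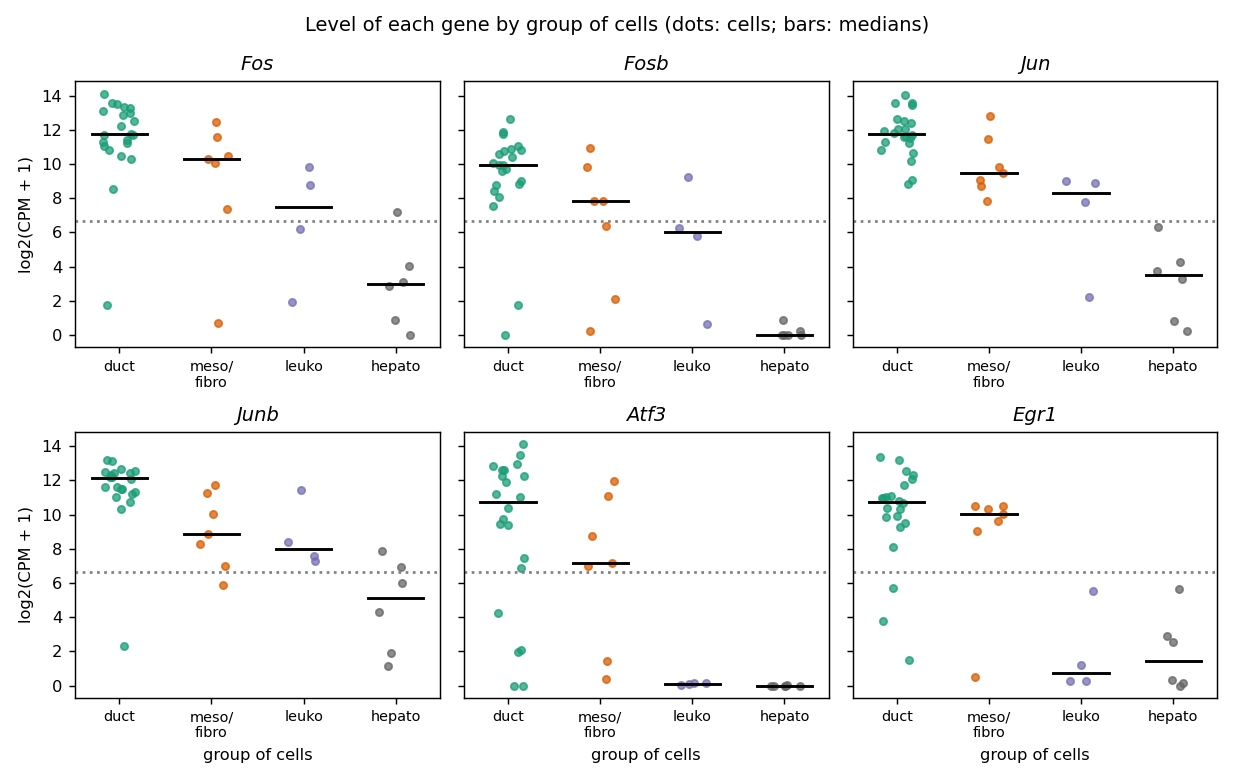
Level of each gene, log2(CPM + 1), in single cells (dots) of the 4 groups, with the group's median (bar) and 100 CPM (dotted line). Duct-like cells lie mostly above the line for each gene, hepatocyte-like cells mostly below it, and these 2 groups overlap for each gene but Jun.

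Set against the 6 hepatocyte-like cells, all 6 genes were higher in the other 33 cells by far more than the typical gene. The difference in mean log2(CPM + 1) was 7.98 for Fosb, 7.68 for Jun, 7.48 for Atf3, 7.40 for Fos, 6.77 for Egr1 and 5.94 for Junb, which ranked 2, 3, 4, 5, 8 and 15 among 10061 genes. The median gene differed by 0.37, and 7.54% of genes were higher by over 2 (4-fold on this scale) and 11.7% lower by over 2. The first gene was Lars2 with 12.10, and Ccdc82, Malat1, Zfp488 and Ywhaz, which are not immediate early genes, were also among the first 15. The SD over cells was 2.31 to 5.08 in the 33 cells and 0.02 to 2.74 in the 6. For Fosb and Atf3 the size of the difference depends on the pseudocount, since most hepatocyte-like cells list them at 0. With a pseudocount of 0.1 they differed by 10.48 and 10.12, and with 10 by 5.24 and 5.05. Not every group among the 33 cells differed so for each gene. In the 4 cells with leukocyte markers the mean log2(CPM + 1) was 1.80 for Egr1 and 0.11 for Atf3, against 1.93 and 0.009 in the hepatocyte-like cells.

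Other measures moved with this difference. The ribosomal RNA precursor Rn45s made up 0.383% to 1.22% of the summed CPM in the 6 cells and 8.42% to 31.2% in the 33. Lars2 had a median of 0.982 CPM (0 to 30.9) in the 6 cells and of 12407 CPM (4468 to 40183) in the 33. Rorb had a median of 38444 CPM (5797 to 95636) in the 6 and of 42.7 CPM (19.5 to 133) in the 33. For all 3 the ranges of the 6 and the 33 cells did not overlap, so these measures and the grouping cannot be told apart here. Their part in the difference was not tested. The 6 genes differed by 5.48 to 7.96 when each cell was rescaled without these 3 genes. The mean log2 level of the 6 genes had a Spearman correlation of 0.35 with the Rn45s share and 0.46 with Lars2 over all 39 cells. Within the 33 cells these were -0.06 and 0.13, which does not bear on a difference between the 33 and the 6. Without cells 38 and 39 the differences were 5.14 to 8.77.

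Among the other 33 cells, the 6 genes had higher means in duct-like cells than in the 7 cells with mesothelial and fibroblast markers, with overlapping ranges for all 6. The differences in mean log2(CPM + 1) were 2.76 for Fosb, 2.53 for Fos, 2.51 for Junb, 2.22 for Atf3, 1.86 for Jun and 1.31 for Egr1. The SD over cells was 1.34 to 4.54 in the duct-like cells and 1.71 to 4.46 in the 7. For Jun and Junb the difference was larger than the SD of both groups, and for the other 4 genes it was smaller than both. Of all genes 2.96% were higher by over 2 in this comparison, and the median gene differed by -0.11. Against the 4 cells with leukocyte markers the differences were 8.94 for Atf3, 8.16 for Egr1, 4.83 for Fos, 4.79 for Jun, 3.71 for Fosb and 2.85 for Junb. Of all genes 5.39% were higher by over 2 there. The ranges overlapped for all 6 genes, and the SD over the 4 cells was 0.05 (Atf3) to 3.57 (Fosb).

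Levels of different genes can be compared only per length of transcript, here the GENCODE length of 1809 bases for Junb, 1984 for Atf3, 2108 for Fos, 3036 for Egr1, 3189 for Jun and 3782 for Fosb. On that scale the duct-like medians stood in the order Junb (2478 CPM per kilobase), Fos (1615), Jun (1091), Atf3 (864), Egr1 (569) and Fosb (261). Each step of this order, 0.34 to 1.12 on the log2 scale, was smaller than the SD over cells of both neighbours (1.34 to 4.54), so no pair of neighbours was apart beyond its spread. In the 7 cells the order was Fos, Egr1, Junb, Jun, Atf3 and Fosb, again with each step within the spread. Junb was the highest of the 6 in 10 duct-like cells, Fos in 7 and Atf3 in 5, and Fosb was the lowest in 12. Dividing by length assumes reads along the whole transcript, and whether that holds is not given in the sources used here.

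Within cells the balance of partners varied widely. Fos exceeded Fosb per kilobase in 19 of the 20 duct-like cells with both at 100 CPM, by a median of 2.38 on the log2 scale, with cell 28 as the exception at -1.67. Fos exceeded Jun in 15 of 21 such cells, with a median of 0.61 and a range of -2.15 to 3.75. Junb exceeded Jun in 17 of 21, the log2 ratio of Jun to Junb having a median of -1.10. Egr1 lay below Fos in 17 of 19. Of the 17 cells with Atf3 and Jun both at 100 CPM, Atf3 was higher in 9 and Jun in 8, over a range of -4.87 to 3.13. The other 5 duct-like cells, with Atf3 at 18.3 CPM or less, held Jun at 448 to 11214 CPM.

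Each of the 25 cells with Fosb at 100 CPM also held Fos and Jun at that level, and so did each of the 25 with Egr1 and each of the 22 with Atf3. In the other direction, 8 of the 30 cells with Fos lacked Atf3 at 100 CPM, 5 lacked Fosb, 5 lacked Egr1, 3 lacked Junb and 1 lacked Jun. Cells with Atf3 also held Egr1 in 21 of 22, Junb in 21 and Fosb in 20. The cells with Fosb, Egr1 or Atf3 at 100 CPM all lay outside the hepatocyte-like group. Among the cells outside that group, Jun reached 100 CPM in 32 of 33 and Fos in 29. Any gene found only in those cells would therefore mostly be found with Jun and Fos. Whether the nesting goes beyond this was not tested. In the 3 cells with exactly 2 genes at 100 CPM, numbers 8, 29 and 34, those 2 were Jun and Junb in each, although the cells belong to 3 different groups.

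Over all 39 cells the levels of the 6 genes went together. The Spearman correlation of the 15 pairs had a median of 0.71, from 0.59 for Fosb with Junb to 0.81 for Fos with Jun. Both genes of a pair come from the same library and share its depth and scaling. Among 205 other genes that reached 100 CPM in at least 20 cells (2.12% of all genes reached it in that many), the 20910 pairs had a median of 0.07 and lay between -0.33 and 0.43 at the 5th and 95th percentile. Part of the agreement between the 6 genes lay between groups of cells. Without the hepatocyte-like cells the median was 0.59, and in the 22 duct-like cells it was 0.43, or 0.35 without cell 34, in which 4 of the genes were low. Within duct-like cells Fos and Jun still had 0.72, Jun and Junb 0.60 and Jun and Egr1 0.56. Fos and Fosb had 0.18 there, and Fosb and Junb 0.05. The pairs of other genes had a median of 0.08 in these cells and lay between -0.36 and 0.48 at the 5th and 95th percentile, a range that holds the median of the 6 genes. In the 7 cells with mesothelial and fibroblast markers the median was 0.32. Fos with Jun and Junb with Egr1 were the lowest pairs there, both at 0.04.

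**Figure D4:**
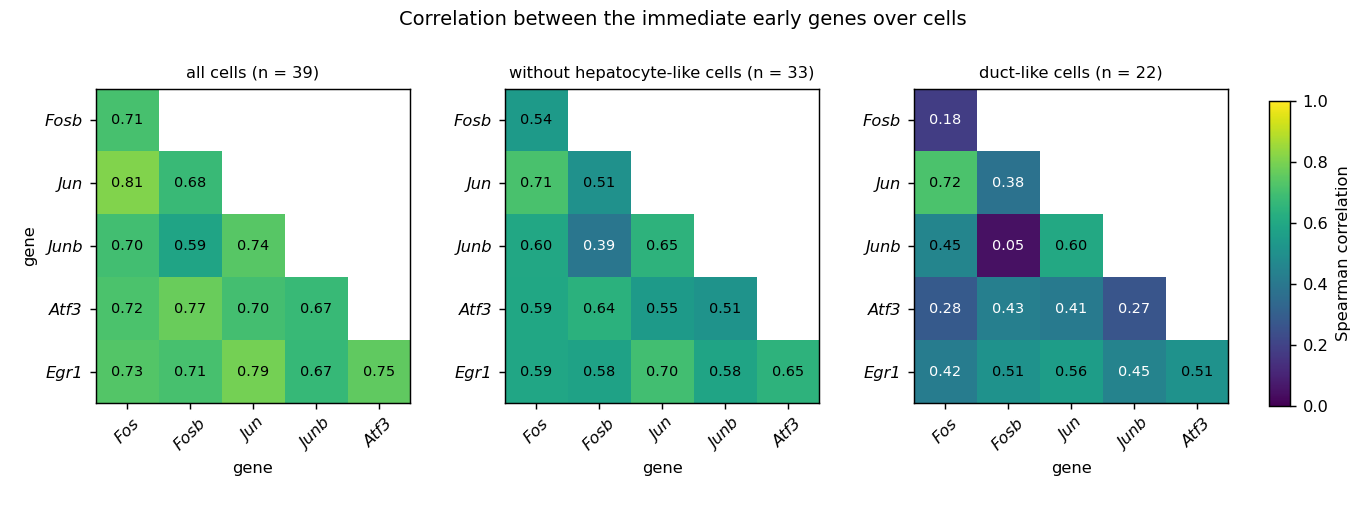
Spearman correlation of each pair of the 6 genes (colour and number) over all 39 cells, over the 33 cells that are not hepatocyte-like and over the 22 duct-like cells. The median of the 15 pairs is 0.71, 0.59 and 0.43 in the 3 panels, and Fos with Jun is the highest pair in each.

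The mean log2 level of the 6 genes had a Spearman correlation of -0.26 with the number of genes found per cell, of 0.31 with the cell's summed CPM and of -0.09 with the CPM that 1 read is worth, over 39 cells. In the 22 duct-like cells these were -0.16, -0.02 and 0.03. With Krt19 it was 0.38 over all cells and -0.11 in the duct-like cells, where Krt19 ran from 0 to 20676 CPM. With Alb, the hepatocyte product albumin, it was -0.07 over all cells, 0.50 in the 33 cells that are not hepatocyte-like and 0.42 in the duct-like cells. With Cd44, a hyaluronan receptor, it was 0.19, -0.16 and -0.32 in the same order. Alb and Cd44 were chosen with their values known, and their part in the levels of the 6 genes was not tested. Junb overlaps the convergent gene Prdx2 in the GENCODE annotation, Jun the antisense gene Junos and Atf3 the antisense gene Gm24748. Whether reads were assigned by strand is not given in the sources used here. Junb and Prdx2 had a correlation of 0.01 over the 39 cells, and Junos and Gm24748 were not analysed here.

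Ranked by likeness to the mean log2 level of the 6 genes over 39 cells, the first gene of 4806 found at 1 CPM in at least 10 cells was Jund, the remaining Jun relative, with a Spearman correlation of 0.77. Btg2, an antiproliferative gene that is itself an early response gene, followed with 0.77, and Hbegf, a ligand of the EGF receptor, with 0.76. The median gene stood at -0.03 and the 99th percentile at 0.60. The next were Malat1 (0.74), a nuclear non-coding RNA, then Pak6, a protein kinase, and AU023762 (both 0.71), Enc1 and Bicc1 (both 0.70), Bicc1 being an RNA-binding protein linked to cystic kidney disease, and Prdm2 and Nfkbiz (both 0.69), the latter an inducible regulator of NF-kappa B. Without the hepatocyte-like cells Btg2, Hbegf, Jund, Enc1 and AU023762 were again among the first 10, at 0.62 to 0.68. The other 5 were Sgk1 (0.67), a kinase induced by serum and steroids, Pkhd1 (0.64), a gene of the primary cilium in duct cells, Ttr (0.63), a hepatocyte product, Mob3b (0.63) and Maff (0.63), a small Maf factor. AU023762 reached 100 CPM in 0 cells and Pak6 in 5, so their ranks rest on low values. In the duct-like cells alone the 10 genes first named had lower correlations, from 0.34 for Prdm2 to 0.54 for Hbegf. The 99th percentile of genes was 0.58 in the duct-like cells, and none of these 10 was among the first 10 there.

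The ranking was also made for each of the 6 genes alone, over all 39 cells and 4811 genes, so it takes in differences between groups of cells. The gene most like Fos was Jun (0.81), followed by Egr1 (0.73) and Atf3 (0.72). In the duct-like cells alone Fos had 0.72 with Jun, 0.42 with Egr1 and 0.28 with Atf3. Of the other 5 genes, the first 10 held 5 for Fos, 4 for Atf3, 4 for Egr1, 3 for Fosb, 3 for Jun and 2 for Junb. Jun was followed by Fos (0.81), Btg2 (0.79) and Egr1 (0.79). Fosb was closest to Jund (0.80), Atf3 (0.77) and Ifrd1 (0.74). Atf3 was closest to Fosb (0.77), Egr1 (0.75) and Csrnp1 (0.75). Egr1 was followed by Jun (0.79), Bicc1 (0.76) and Atf3 (0.75). For Junb the first was Cdh1 (0.76), followed by Jun (0.74) and Hbegf (0.73). Cdh1, the epithelial cadherin, is one of the duct markers that formed the groups.

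The lists of other genes of the pathway had lower medians than the 6 genes, although Dusp1 was found in more cells than 3 of the 6. The median gene of the table reached 100 CPM in 2 cells, against 27.5 for the 6 genes. The list of further AP-1 partners had a median of 3 cells over 11 measured genes, that of EGR relatives and corepressors 2.5 over 4, and that of upstream kinases and factors 3 over 17. Feedback inhibitors had a median of 10 over 13, other early response genes 11 over 20 and reported AP-1 targets 4 over 9. Between the 33 cells and the 6 hepatocyte-like cells, where 7.54% of all genes were higher by over 2 on the log2 scale, 7 of 13 feedback inhibitors, 12 of 20 other early response genes and 5 of 9 targets were. Of the AP-1 partners it was 2 of 11, of the upstream genes 2 of 17 and of the EGR list 0 of 4. In each of the upstream, feedback, early response and target lists 1 gene was lower by over 2. The lists were drawn up with results of these data known.

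Among the AP-1 partners Jund reached 100 CPM in 20 cells, with a median of 211 CPM in duct-like cells and 3.06 CPM in hepatocyte-like ones. Atf4, of the amino acid stress response, reached it in 11, Fosl2 in 8 and Maff in 5. Atf2, Atf7 and Mafg reached it in 1 each. Of the EGR list Egr2 reached it in 5 cells, Nab1 in 4 and Egr3 in 1, while Nab2, the corepressor that Egr1 is known to induce, was at 11.2 CPM at most. Of the upstream genes Map3k1, a kinase above the Jun kinases, reached it in 14, 12 of them duct-like, then Mapk3, encoding ERK1, in 12, Mapk14, encoding p38, in 8 and Rps6ka3 in 6. Srf, the serum response factor, reached it in 2, as did Elk4, Creb1, Map2k7 and Met, and its partner Elk1 in 0. Mapk8 and Mapk9, which encode Jun kinases, were not analysed here. Dusp1, a phosphatase that switches off these kinases, was the most widespread of the listed genes with 29 cells, of which 18 were duct-like, 7 had mesothelial and fibroblast markers and 4 had leukocyte markers. Zfp36, which destabilises early response mRNAs, reached it in 21, Zfp36l1 and Nfkbia in 20 each, and Dusp4 and Dusp5 in 2 and 1.

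The other early response genes did not all follow the 6 genes from group to group. Btg2 reached 100 CPM in 24 cells, Ier2 in 21, Klf6 in 19, Klf4 and Hbegf in 16, Klf2 in 2 and Nr4a2 in 0. Hbegf did so in 16 of 22 duct-like cells and in 0 of the 17 others, and so did Cyr61, a secreted matrix protein, in 15 and 0. Klf4, a factor of epithelial differentiation and growth arrest, reached it in all 7 cells with mesothelial and fibroblast markers but in 9 of 22 duct-like cells, with medians of 399 and 20.1 CPM. Nr4a1, an orphan nuclear receptor, had medians of 572 and 123 CPM in these groups. The difference in mean log2(CPM + 1), duct-like cells less the 7 cells, was 7.59 for Hbegf, 5.07 for Cyr61, -3.77 for Klf4 and -2.30 for Nr4a1. Cyr61 and Nr4a1 were picked after their values were seen. Gadd45g, a growth arrest gene also picked so, went the other way and reached 100 CPM in 3 of the 6 hepatocyte-like cells, at a median of 71.8 CPM, and in 1 duct-like cell. Of the reported AP-1 targets Ezr, a membrane linker, reached it in 17 cells, Cd44 in 15, Ccnd1, encoding cyclin D1, in 12 and Mmp14 in 6, while Plau did in 0 and Fosl1, which is also on the list of AP-1 partners, in 3.

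**Figure D5:**
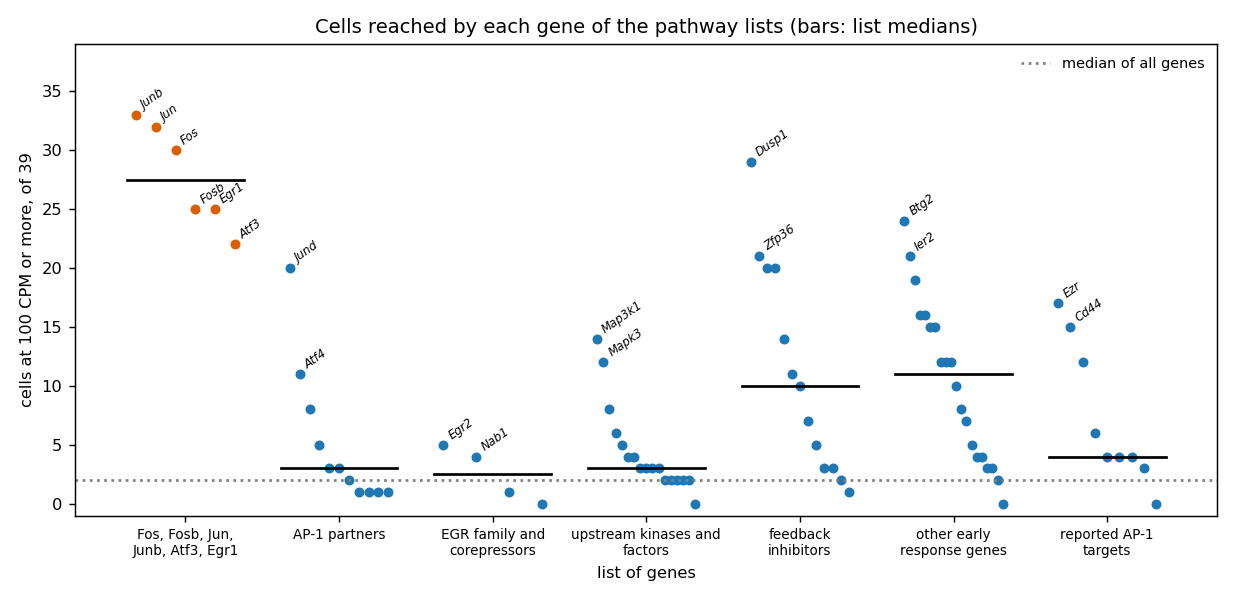
Number of the 39 cells in which each measured gene reached 100 CPM, for the 6 genes (left) and 6 lists of related genes, with the list median (bar) and the median of all genes, 2 cells (dotted line). Dusp1, in 29 cells, and Btg2, in 24, are the listed genes that lie between Atf3 with 22 and Junb with 33.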

How the data were processed

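The deposited table holds log2 values of 13568 RefSeq transcripts in 39 cells. The submitters' processing notes name the mouse build mm9, eXpress 1.5.1, Bowtie 0.12.9 and edgeR (version not given), without saying in which role or order. All cells share a lowest log2 value of -2.58, taken as that of a transcript with no reads. Each value was raised as a power of 2, less 0.167, and is called CPM here; both scale and log base are read from the numbers themselves. Cell sums ran from 351255 to 3128332, so a scaling per cell beyond the total is kept. Of 10 housekeeping genes 7 were listed at 0 in some cell, so a 0 is reported as listed only. Low values stepped by 0.0241 to 0.273 CPM, taken as 1 read, in 37 cells, where 30.9% to 51.9% of values up to 20 steps lay within 2% of a read of a whole multiple. No molecular identifiers are named in the labels, and intervals cover the choice of cells alone.

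Cells were grouped by Ward's method on the 98 measured markers, as log2(CPM + 1) reduced to 10 principal components, k from 2 to 6 with at least 3 cells each, by the highest silhouette (0.49 at 4). No doublet caller was run and no cell was left out. Genes were named as the 6 genes, the 10 most like their mean, the 3 most like each, and in each list the 4 in the most and 2 in the fewest cells, except 1 gene that is not reported here; others were chosen after their values were seen, as were the motifs. The 6 genes, the lists and the rules were chosen with earlier results of these data known. The code for the likeness ranking and the group difference was run on simulated data, with each gene shuffled over cells and some genes planted. That checks the code and says nothing on the results in these cells. Accessions and promoter windows come from RefSeq (GRCm38.p6), which gave a window for 5 of the 6 genes, and lengths from GENCODE M21. Python 3.11.15, numpy 2.4.6, pandas 2.3.3, scipy 1.17.1 and scikit-learn 1.9.0 were used.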

Additional observations from a re-analysis of the deposited data

How the results depend on the processing

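Cells with 3 or more of the 6 genes numbered 29 at 100 CPM, 37 at 1 CPM and 22 at 1000 CPM, and cells with all 6 numbered 18, 25 and 9, which follows from the looser or stricter threshold. At 10 CPM and under both rescalings of the cells both counts stayed within the interval of the main one. Leaving out cells 38 and 39 (chosen after seeing the data) could not change either count. These cells held 0 and 1 of the 6 genes at 100 CPM. The median correlation of the 15 pairs, 0.71, was 0.59 without the hepatocyte-like cells and 0.43 in duct-like cells alone. With alternatives chosen after seeing the data it was 0.53 without the hepatocyte-like cells and cells 8 and 34, and 0.35 in duct-like cells without cell 34. Rescaling and Pearson correlation at 3 pseudocounts left it within 1 SD of the pairs. The median difference of the 6 genes between the 33 other and the hepatocyte-like cells, 7.44, was 8.19 at a pseudocount of 0.1 and 5.21 at 10, and no gene changed sign. Of the 10 genes most like the 6, 6 remained when at least 20 cells were required, 3 with Pearson correlation and 5 without the hepatocyte-like cells; the cause was not tested. Of 30 alternative counts for single genes, 21 stayed within their interval. Each of the 6 genes has 1 transcript row, so taking the highest row changed nothing.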

Other observations

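At the other end of the likeness ranking over 39 cells stood Rpl35a, a ribosomal protein, at -0.78, Sumo3 at -0.74, Cox5a, a cytochrome oxidase subunit, at -0.73 and Rpl37, another ribosomal protein, at -0.72. Over the 33 cells that are not hepatocyte-like, the 10 lowest of 3949 genes were Arhgdib (-0.72), one of the leukocyte markers that lead the group of 4 cells, 1810009A15Rik and Mki67 (both -0.71), Mki67 being a marker of cycling cells, Smc4, Pml and Mcm6 (all -0.70), Srp9 (-0.69), Cdk4 (-0.67), and Stub1 and Atp6v1a (both -0.66). Mki67 reached 100 CPM in 6 cells, which held 5, 2 and 6 of the immediate early genes at that level in cells 6, 8 and 10 with mesothelial and fibroblast markers, and 4, 1 and 3 in cells 32, 33 and 36 with leukocyte markers. None of these 6 cells was duct-like, so the -0.71 of Mki67 takes in differences between groups of cells. In the 22 duct-like cells, all under 100 CPM for Mki67, its correlation was -0.49. All these genes were named with their values known, and with single cells as points the correlations describe these libraries only.

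Within the duct-like cells the gene most like the 6 was 1110046J04Rik (0.80), followed by Sgk1 (0.76), and the least like were Spint2 (-0.77) and Prdx1 (-0.67), of 2073 genes.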
